A study of Mus musculus with 16 samples.

Results

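The effect of a Western diet (WD) on the ileum of mice lacking Tas1r3 was described over 17510 genes, out of the 23299 genes in the deposited table. RPKM is a read count per kilobase of transcript and per sequencing depth, summed here over the transcripts of a gene. A gene was described where this value reached 1 in 2 or more of the 5 usable Tas1r3-/- libraries. Terminal ileum RNA from C57BL/6 mice was sequenced after 10 weeks of feeding. The Tas1r3-/- animals carry a germline deletion, backcrossed to C57BL/6, so the receptor is missing from every tissue and from both diet groups. Tas1r3-/- mice received either the normal diet (ND) and plain water or the WD, which paired pellets labelled as 60% high-fat with a 30% sucrose solution to drink. Littermates with the intact gene (Tas1r3+/+) were fed in the same way, as 4 ND and 4 WD libraries. The fit across all groups therefore held 13 libraries and 19042 genes.

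The labels list 8 Tas1r3-/- samples, 2 males and 2 females per diet, but not all of their columns are separate measurements. The ND female 1 column equals 0.75 of the male 1 column plus 0.25 of the male 2 column in all but 17 of 59258 transcripts, and the ND female 2 column equals 0.625 and 0.375 of the same columns in all but 18. Both were left out. The WD female columns are related to each other and were averaged into 1 library. Subtracting female 1 from 2 times female 2 left at most 6 significant digits in 98.6% of 55520 transcripts. With a WD male column in place of female 1 the share was 64.5% and 67.9%. How the female columns were made is not known, so the averaged library may not stand for 1 animal. The comparison thus set 2 ND males against 2 WD males and 1 averaged WD female library, which has no ND counterpart. Xist, the transcript of the inactive X chromosome, had an RPKM of 43.0 in the WD female library and at most 0.123 in the other 4. Tas1r3 itself had an RPKM of 0.000726 and 0.000845 in the ND libraries and of at most 0.00452 in the WD libraries, far below what 1 read is worth. The depth implied by the values was 7004407 to 10011704 reads per library. The labels do not say whether samples of a group came from separate cages or litters, so p-values measure only the spread between these samples.

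Deposited values summed to 819206 and 819916 in the ND libraries and to between 615419 and 672933 in the WD libraries, with the same division in Tas1r3+/+ mice. A factor common to a whole library is removed by the scaling between libraries used here. Without that scaling, the median log2 fold change of all genes described was -0.36 instead of 0.00. Any other difference in how the values of the 2 diets were made cannot be told apart from the diet.

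As background, the ileum is the last segment of the small intestine. Its absorptive enterocytes take up remaining fat, sugar and bile acids, goblet cells secrete mucus, Paneth cells at the crypt base secrete antimicrobial peptides, and the wall beneath holds lymphocytes, follicles, smooth muscle and nerves. TAS1R3 is the shared subunit of the sweet and umami taste receptors and is also found in enteroendocrine cells, the hormone-secreting sensors of the gut epithelium. A diet rich in fat supplies the fatty acids and sterols that cells otherwise make, and synthesis genes controlled by SREBP transcription factors are known to respond to that supply.

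At the study's threshold, an adjusted p under 0.01 with a fold change of at least 2 (limma with Benjamini-Hochberg adjustment), 0 of the 17510 genes differed between WD-fed and ND-fed Tas1r3-/- mice (0.0%). With an adjusted p under 0.05 and no minimum fold change, 1 gene passed (0.00571%), the T cell receptor segment Trbv13-1. An unadjusted p under 0.05 was reached by 1012 genes (5.78%), 502 higher on the WD (2.87%) and 510 lower (2.91%). In every WD library, 1887 genes (10.8%) lay above both ND libraries and 1809 (10.3%) lay below both. These percentages are the background for the counts over all 5 libraries given further on. Without WD male 1 the shares were 18.2% above and 19.2% below, and without the WD female 21.3% and 24.1%. Log2 fold changes lay between -0.25 and 0.25 for the middle of the distribution (lower to upper quartile), 2.61% of genes reached an absolute value of 1, and the median standard error was 0.35. In simulated data with 200 changed genes, a log2 change of 1 was recovered in 0 of them, one of 2 in 68 and one of 3 in 113, with 0 false calls. Changes of 2-fold were therefore not detectable at this group size. An exact two-sided permutation test of 2 against 3 libraries has 10 splits and cannot go below p = 0.2, so it was not used gene by gene.

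In 151 genes the deposited RPKM, before scaling, reached 1 in both ND libraries and in no WD library. In 135 genes it did so in 2 or more WD libraries and in no ND library. The 2 rules differ and deposited values sum lower on the WD, so the 2 counts cannot be compared with each other. Log2 values of the 2 ND males correlated with r = 0.956 over genes. Among the WD libraries r was 0.924 between the males, 0.928 between male 2 and the female, and 0.866 between male 1 and the female. Between an ND and a WD library it was 0.914 to 0.949.

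Trbv13-1, a variable segment of the T cell receptor beta chain (ENSMUSG00000076467.3, chr6:41116007-41116468, GRCm38), was the 1 gene whose rise on the WD passed the wider threshold. Its scaled RPKM was 3.60 and 2.43 in the ND males, 43.7 and 54.8 in the WD males and 65.4 in the WD female. The lowest WD library was more than 10 times the highest ND library. The log2 fold change was 3.97 (standard error 0.44, limma adjusted p = 0.0130), a fold of 15.7. The deposited values corresponded to 14 and 8 reads in the ND males and to 133 and 229 in the WD males. The WD female 1 column alone, before averaging, corresponded to 166 reads. The counting error was thus small beside the difference. The adjusted p lay above 0.05 when either ND library, WD male 2 or the WD female was left out (0.0691 to 0.560), while the log2 fold change stayed between 3.73 and 4.21. In Tas1r3+/+ mice, the same segment had a log2 fold change of 4.76 (limma adjusted p = 8.59e-05).

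Both constant segments of the beta chain, 1 of which every T cell receptor of the alpha-beta type carries, also lay higher in all WD libraries. Trbc2 (chr6:41546730-41548352) had a scaled RPKM of 6.22 and 7.94 on the ND against 21.4, 28.4 and 33.0 on the WD, a log2 fold change of 1.88 (standard error 0.46, limma adjusted p = 0.691). Trbc1 (chr6:41538218-41539881) had 6.00 and 7.83 against 15.9, 18.5 and 20.8, a log2 fold change of 1.35 (standard error 0.41, limma adjusted p = 0.845). Trac, the constant segment of the alpha chain, had 3.50 and 11.1 on the ND and 9.76, 10.1 and 12.4 on the WD, so its groups overlapped. The CD3 subunits, which accompany the receptor on every T cell, did not separate the diets. Cd3e had 1.09 and 3.91 on the ND and 1.33, 0.618 and 3.17 on the WD, and Cd3g 1.33 and 6.35 against 3.54, 2.11 and 5.82. The co-receptor Cd4 had 1.88 and 4.28 against 3.91, 1.42 and 1.82. Of the 20 genes of the intraepithelial lymphocyte and T cell list that were described, 2 (Trbc1 and Trbc2) lay higher and 1 (Foxp3, the regulatory T cell factor) lower in every WD library, with a list median of -0.13 (-0.78 without ND male 1 and 0.32 without ND male 2). Trbv13-2 and Trbv13-3, close relatives of Trbv13-1 in the same cluster on chromosome 6, stayed at or under a scaled RPKM of 2.39 in all 5 libraries. Reads of such related segments may be divided between them by the counting.

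**Figure D1:**
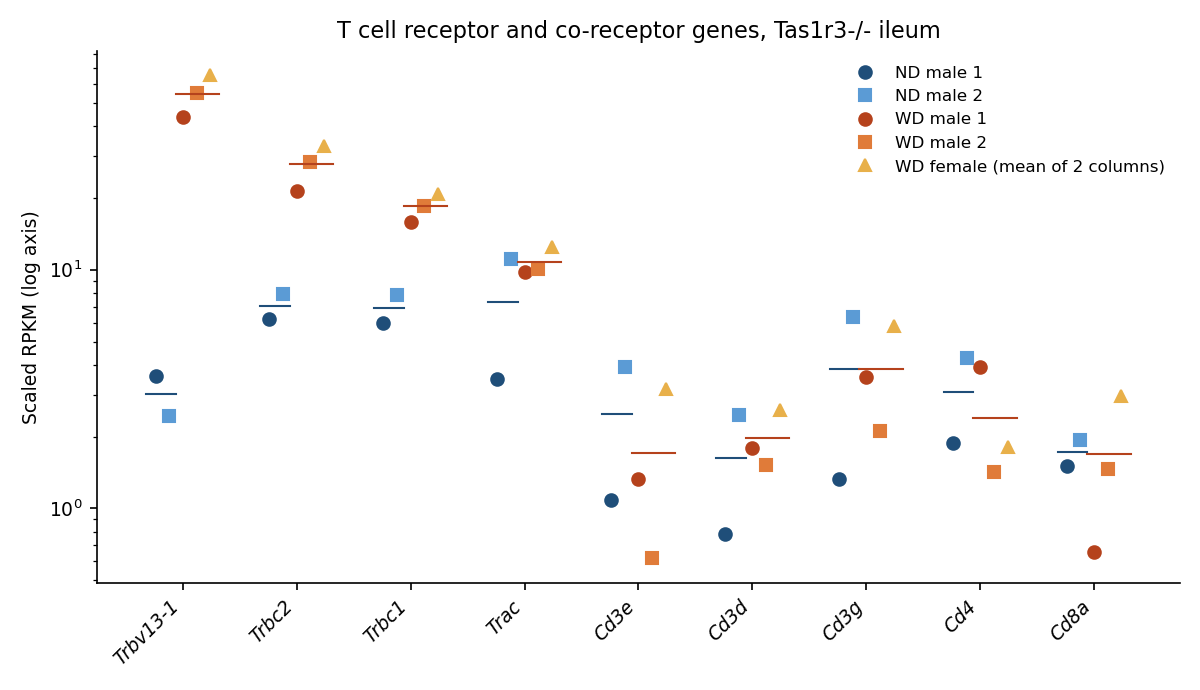
Scaled RPKM (log axis) of T cell receptor and co-receptor genes in each Tas1r3-/- library, with 1 symbol per library and short lines for the mean of each diet. The 3 WD libraries of Trbv13-1, Trbc2 and Trbc1 lie above both ND libraries, whereas those of Trac, Cd3e, Cd3d, Cd3g, Cd4 and Cd8a overlap with them.

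The messenger RNAs encoded in mitochondrial DNA were the one list of which every member separated the diets. They specify subunits of the respiratory chain and of ATP synthase, the machinery that turns oxidised fuel into ATP. All 13 lay higher in every WD library than in both ND libraries, beside 10.8% of all genes described. They were read from the same libraries, so they are not 13 separate observations of the diet. Their median log2 fold change was 1.00, beside 0.00 over all genes, and 9 of the 13 had an unadjusted p under 0.05, whereas 0 passed adjustment over all genes (lowest adjusted p = 0.845).

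For mt-Nd3, a small complex I subunit, the scaled RPKM was 403 and 332 in the ND males and 727, 866 and 813 in the WD libraries, a log2 fold change of 1.13 (standard error 0.34, limma adjusted p = 0.845). For mt-Nd4l, also of complex I, it was 828 and 680 against 1616, 1569 and 1462. The most abundant of them, mt-Co1, the catalytic subunit of cytochrome c oxidase, had 5003 and 3667 against 6320, 6980 and 10552. The cytochrome b gene mt-Cytb had 3588 and 2671 against 5451, 5770 and 7198, and the ATP synthase gene mt-Atp8 had 1969 and 1525 against 3075, 4117 and 3567. The sum over the 13 mRNAs was 29693 and 22799 on the ND and 43730, 50252 and 58261 on the WD. As a share of all deposited values of a library, which does not depend on the scaling, they made up 3.48% and 3.46% on the ND and 6.01%, 6.90% and 6.78% on the WD.

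**Figure D2:**
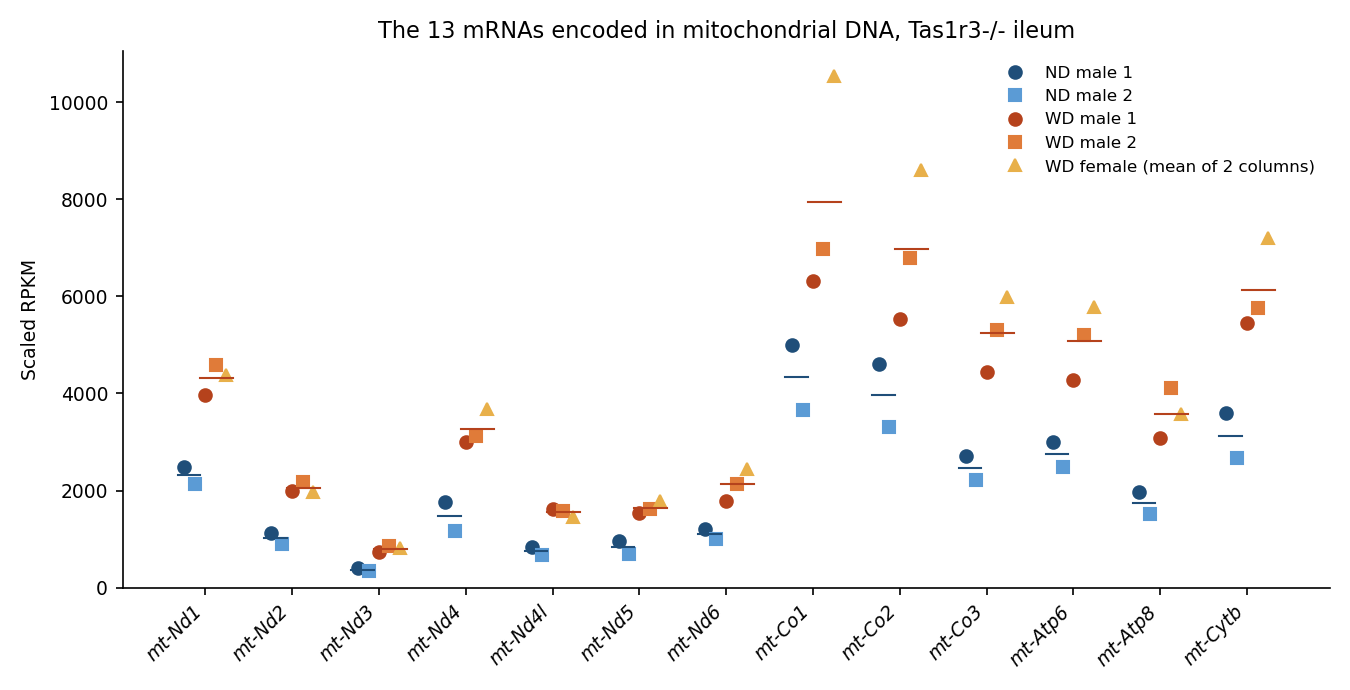
Scaled RPKM of the 13 mRNAs encoded in mitochondrial DNA in each Tas1r3-/- library, with 1 symbol per library and short lines for the mean of each diet. In all 13 the WD libraries lie above both ND libraries.

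Both mitochondrial ribosomal RNAs also lay higher in every WD library. For mt-Rnr1 the scaled RPKM was 408 and 291 against 505, 762 and 1912 (log2 fold change 1.39, standard error 0.71), and for mt-Rnr2 412 and 263 against 413, 602 and 1555 (log2 fold change 1.14, standard error 0.70), the lowest WD library lying just above ND male 1. Of 20 mitochondrial transfer RNAs, which are short and poorly captured in such libraries, 2 lay higher and 1 lower in every WD library (median log2 fold change 0.17, 0.74 without WD male 1 and -0.51 without the WD female). Among 92 nuclear-encoded respiratory chain subunits, 7 lay higher and 16 lower in every WD library, with a median of -0.07. The 13 mRNAs were higher in all WD libraries also without WD male 1 (median 1.05) and without the WD female (median 0.93). In Tas1r3+/+ mice the median of these mRNAs was 1.07, and 12 of 13 were higher with an unadjusted p under 0.05, as were 6.99% of all genes there.

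Part of the genes that build fatty acids lay lower on the WD. Of the 20 members of the fatty acid synthesis and desaturation list, 8 lay below both ND libraries in every WD library and 0 lay above, beside 10.3% and 10.8% of all genes. Their median log2 fold change was -0.45, 4 had an unadjusted p under 0.05, and 0 passed adjustment over all genes (lowest adjusted p = 0.870). The median stayed between -0.54 and -0.29 when 1 library was left out. Without the WD female 9 lay lower and 3 higher, beside 24.1% and 21.3% of all genes. Adipocyte markers, which fat attached to the gut wall would bring and which include Thrsp, were present in all libraries and had a median of -0.39 (-0.86 in Tas1r3+/+ mice), with 16 of 18 fold changes below 0 but 1 gene, Thrsp, without overlap. Their summed scaled RPKM was 282 and 417 on the ND and 245, 116 and 547 on the WD. Without the WD female, where 24.1% of all genes lay lower, 9 of the 18 did (median -0.77). Their part in the fatty acid result was not tested.

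These genes form a chain from citrate to fatty acid. Acly, ATP citrate lyase, which releases acetyl-CoA from citrate, had a scaled RPKM of 36.4 and 62.5 on the ND and 26.9, 25.7 and 20.7 on the WD, a log2 fold change of -0.96 (standard error 0.35, limma adjusted p = 0.870). Acaca, acetyl-CoA carboxylase, the committed step, had 4.33 and 7.90 against 3.57, 2.84 and 4.11. Fasn, fatty acid synthase, had 104 and 196 against 44.0, 47.6 and 81.3, a log2 fold change of -1.36 (standard error 0.52, limma adjusted p = 0.873). Thrsp, a small regulator of lipogenesis, had 24.4 and 75.1 against 4.63, 1.79 and 22.4, a log2 fold change of -2.75 (standard error 1.04, limma adjusted p = 0.873). Its WD female value lay close below the lower ND male, and the WD males lay far below. The other 4 were Acacb (the mitochondrial carboxylase), Scd2 (a desaturase), Me1 (malic enzyme, a source of NADPH, with 1 value of more than 6 digits) and Pnpla3. Scd1, the main desaturase elsewhere, and the regulators Srebf1 and Mlxipl were not among them. In Tas1r3+/+ mice, the log2 fold changes were -1.11 for Acly, -1.06 for Acaca, -2.36 for Fasn and -3.93 for Thrsp.

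**Figure D3:**
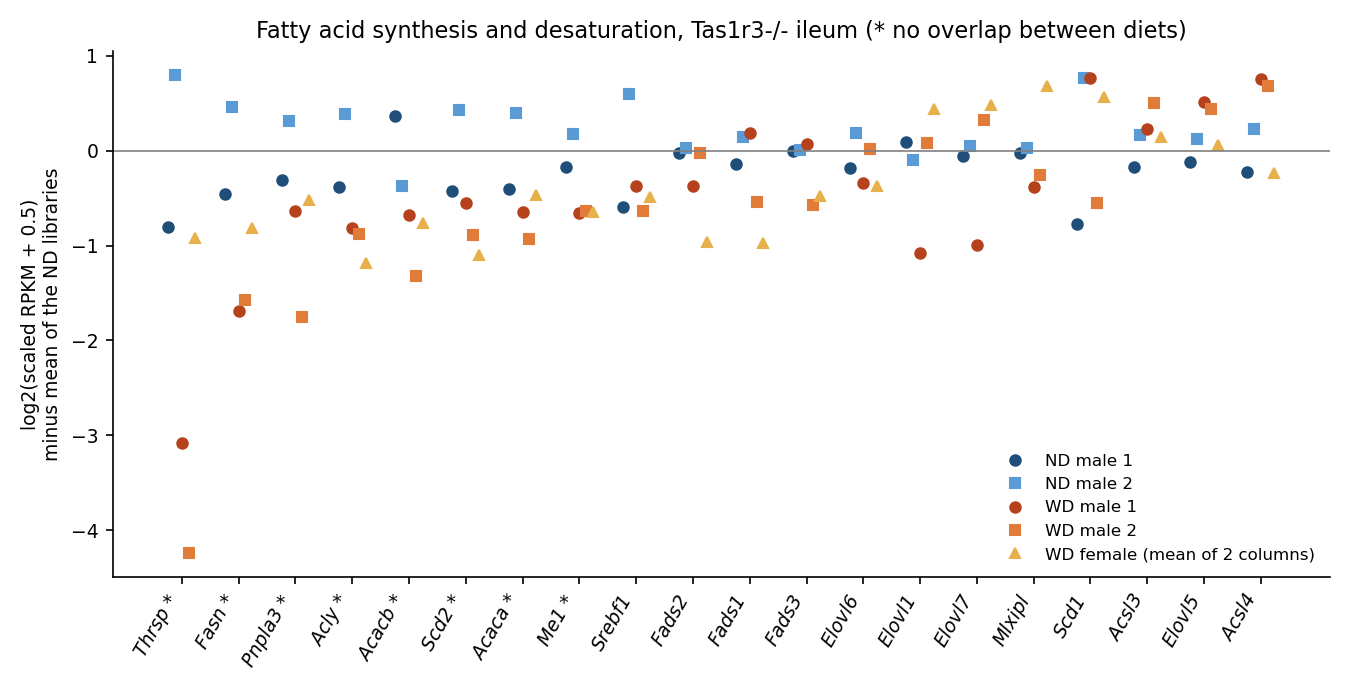
Log2(scaled RPKM + 0.5) of the 20 fatty acid synthesis and desaturation genes in each Tas1r3-/- library, minus the mean of the 2 ND libraries, ordered by the log2 fold change. Asterisks mark the 8 genes in which every WD library lies below both ND libraries, and Thrsp spreads most among the WD libraries.

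The stretches just before the starts of Fasn and Thrsp are shown because both genes were low together and because the CCAAT box, bound by the factor NF-Y, is known to work beside SREBP sites. Each is 150 bases long and ends at the base before the transcription start, on the minus strand of GRCm38.p6 (RefSeq), at chr11:120824548-120824697 for Fasn and chr7:97417551-97417700 for Thrsp. Capitals mark CCAAT or its reverse complement ATTGG, with overlapping matches joined.
Fasn: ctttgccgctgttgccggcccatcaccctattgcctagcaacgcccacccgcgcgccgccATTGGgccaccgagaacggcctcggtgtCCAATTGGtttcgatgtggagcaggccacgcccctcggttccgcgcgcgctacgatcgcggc
Thrsp: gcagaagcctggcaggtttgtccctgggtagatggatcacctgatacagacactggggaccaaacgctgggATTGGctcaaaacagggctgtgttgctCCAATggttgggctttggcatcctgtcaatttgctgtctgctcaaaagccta
Fasn held 3 matches on either strand, 2 of them overlapping, and Thrsp held 2. Within 250 bases before the start, 33.8% of 32851 promoter windows held at least 1 match. By gene, 37.5% of 27025 did, as did 11 of the 17 list members found in the table and 5 of the 7 matched members that were lower in every WD library. A match is only a description of the letters.

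The sterol pathway leaned the same way with smaller differences. Of 25 cholesterol synthesis and SREBP2 target genes, 5 lay lower and 0 higher in every WD library, with a median log2 fold change of -0.18, and 1 had an unadjusted p under 0.05. This gene was Mvk, mevalonate kinase, with a scaled RPKM of 23.8 and 18.2 on the ND and 7.88, 12.4 and 13.4 on the WD (log2 fold change -0.90, standard error 0.30, limma adjusted p = 0.858). The other 4 were Mvd (mevalonate decarboxylase), Lss (lanosterol synthase), Dhcr7 (the last reductase) and Srebf2, the regulator of the pathway, which had 52.6 and 53.6 against 34.3, 41.1 and 52.3. Without WD male 1, 10 of the 25 lay higher and 5 lower, beside 18.2% and 19.2% of all genes. The median was then 0.04, so the lean of this list rested on WD male 1. In Tas1r3+/+ mice the median was -0.57, and 11 genes had an unadjusted p under 0.05, all lower, as were 8.95% of all genes there.

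Genes that burn or export fat did not separate the diets. Of 23 genes of mitochondrial fatty acid oxidation, 2 lay higher and 4 lower in every WD library (median -0.12). The 4 lower genes were Hadha (trifunctional protein), Eci1 (an enoyl isomerase), Acads (short-chain dehydrogenase) and the ketone body enzyme Bdh1. Acads had a scaled RPKM of 61.0 and 54.0 on the ND and 27.3, 29.8 and 46.8 on the WD, with a log2 fold change of -0.76 (standard error 0.32, limma adjusted p = 0.901). Among 26 PPAR-alpha target genes of the enterocyte, 0 lay higher and 1 lower, the lipid droplet coat gene Plin2, with 39.6 and 46.6 against 22.0, 19.8 and 38.6. Chylomicron and triglyceride assembly, by which enterocytes package absorbed fat, had 1 of 29 genes higher and 1 lower. Its summed scaled RPKM was 3520 and 2046 on the ND and 1315, 2757 and 10383 on the WD, the lowest and highest values both being WD libraries.

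The largest log2 fold change among the 12604 protein-coding genes described was that of Slc2a2, a sugar transporter gene. Slc2a2 (chr3:28697903-28731359), which encodes the glucose and fructose transporter GLUT2, had a scaled RPKM of 0.668 and 0.510 on the ND and 2.16, 8.97 and 16.1 on the WD. Every WD library lay above the ND males, but the WD values spread widely. The deposited RPKM was 0.643 and 0.634 in the ND males, so Slc2a2 reached the limit for description only through WD libraries. It could enter only by being higher there. Its direction is therefore no support for a rise, and the count of higher fructose and glucose genes further on includes it. The log2 fold change was 2.78 (standard error 0.85, limma adjusted p = 0.845), and 1.07 in Tas1r3+/+ mice. The values corresponded to 20 and 9 reads in the ND males and to 70 and 256 in the WD males. The WD female 1 column alone corresponded to 532 reads. The gluconeogenic enzyme Fbp1 had 6.61 and 3.67 against 13.5, 7.40 and 36.6 (log2 fold change 1.56, standard error 0.68, limma adjusted p = 0.901).

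The basal glucose transporter Slc2a1 lay the other way, with 8.63 and 9.20 against 5.60, 7.27 and 5.92, as did G6pc3, a glucose-6-phosphatase, with 23.2 and 25.6 against 18.5, 16 and 16.4. In all, 4 of the 32 fructose and glucose genes lay higher and 4 lower in every WD library, with a median of 0.04. The brush-border sucrase Sis had 107 and 86.3 against 89.0, 263 and 708, and 0 of 17 brush-border hydrolases separated the diets. The enterocyte markers moved with Slc2a2 and Fbp1 only in part. Their summed level was lowest in WD male 1, where Slc2a2 was still above both ND libraries, and highest in the WD female, where it was highest. Their part in the result was not tested.

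The makeup of the tissue pieces differed between the WD libraries. Over the 22 genes of the enterocyte list, the summed scaled RPKM was 14468 and 14293 on the ND and 4927, 11213 and 26408 on the WD. Over the 20 smooth muscle genes it was 8210 and 4673 against 12025, 6165 and 3355, so that WD male 1 was poor in enterocyte and rich in muscle RNA, and the WD female the reverse. Neither list separated the diets, with 1 and 0 genes without overlap. Enteric neuron and glia genes summed to 140 and 99.8 against 285, 107 and 56.4, and endothelial and stromal genes to 705 and 601 against 1223, 733 and 375. In bulk tissue, fewer cells of a type and less RNA per cell cannot be told apart. Goblet cell genes summed to 11044 and 7930 against 6280, 9649 and 16056, and Paneth cell products to 208605 and 102464 against 156485, 140483 and 118051. Pancreatic genes (7 described) and red blood cell genes (4 described) had 0 members without overlap.

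**Figure D4:**
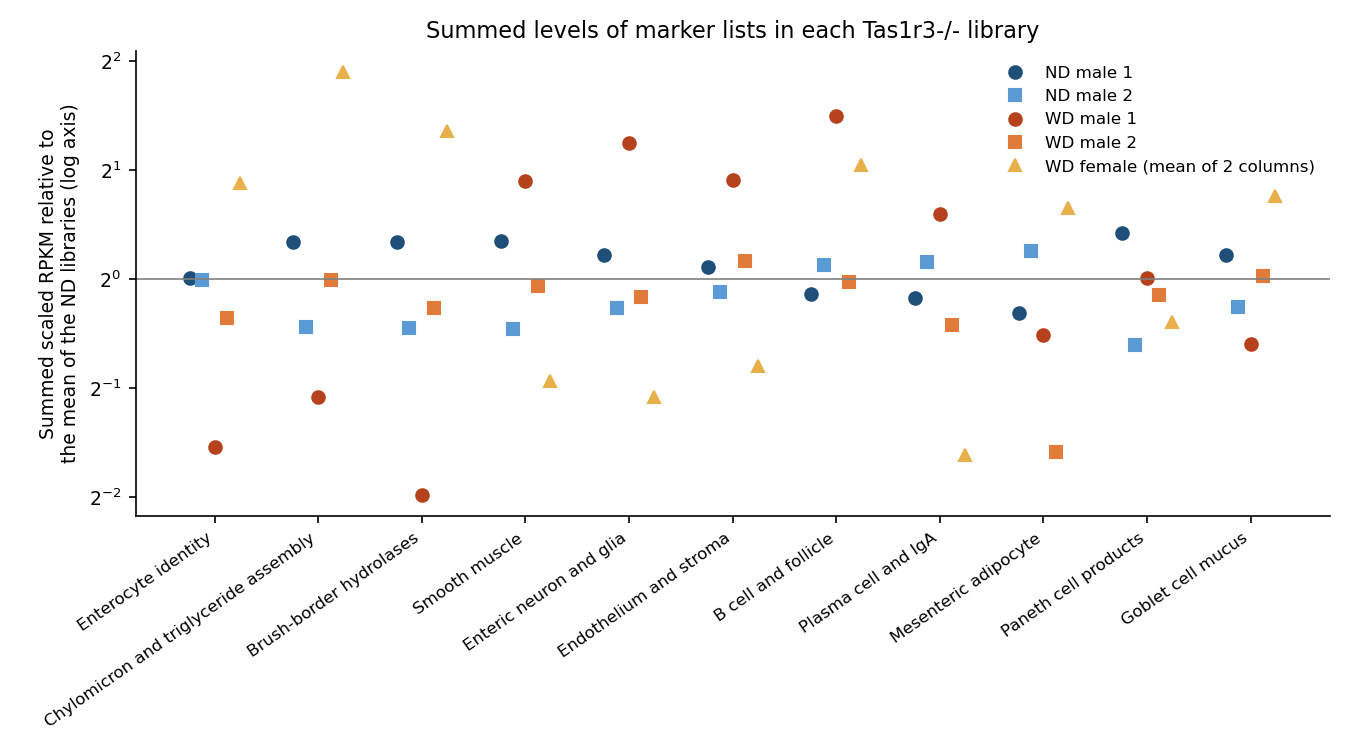
Summed scaled RPKM of marker and function lists in each Tas1r3-/- library, relative to the mean of the 2 ND libraries (log axis, 1 symbol per library). WD male 1 and the WD female lie on opposite sides for the enterocyte, brush-border and chylomicron lists and for the smooth muscle, neuron and stroma lists, with WD male 2 between them.

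Bile acid genes did not separate the diets. Of 16 genes, 0 lay higher and 1 lower in every WD library. Slc10a2, the apical bile acid transporter that marks the ileum, had a scaled RPKM of 53.5 and 38.3 against 19.7, 87.4 and 208. Fabp6, the ileal bile acid binding protein, had 1318 and 4717 against 741, 1577 and 2248, so both defining markers of the labelled tissue were present in all 5 libraries. Amino acid and peptide transporters (17 genes, 1 higher), retinoid genes (21 genes, 2 higher) and cytochrome P450 genes (19 genes, 1 higher) also showed few differences. Without WD male 1, the medians of the brush-border and chylomicron lists were 0.84 and 0.40, and without the WD female -0.69 and -0.54.

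The study reads the ileum of these mice for inflammation, and its inflammatory genes are described next with their values in Tas1r3+/+ mice beside them. The list joins genes and pathways that the study names in several of its experiments, and it was drawn up with earlier results of these data known, so its direction is not independent evidence. Several carry values of more than 6 significant digits, a form that 169 values in 102 transcripts of the 13 libraries have while the rest are written with at most 6. Of 9 inflammatory genes in the table, 7 were described, 3 lay lower and 0 higher in every WD library, and the median log2 fold change was -0.68 in Tas1r3-/- and 0.87 in Tas1r3+/+ mice.

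Nfkb1, which encodes the p50 subunit of the inflammatory factor NF-kB, had a scaled RPKM of 16.5 and 23.2 on the ND and 11.3, 10.2 and 10.3 on the WD. Its log2 fold change was -0.86 (standard error 0.19, limma adjusted p = 0.689), and 0.41 in Tas1r3+/+ mice, where all WD libraries lay above all ND libraries, as in 4.28% of genes, while 6.64% had all WD libraries below. The difference between the genotypes in the diet effect was -1.27 (standard error 0.24, interaction adjusted p = 1.00). Il18, an epithelial cytokine of the IL-1 family, had 8.39 and 7.36 against 2.03, 2.74 and 2.59, a log2 fold change of -1.51 (standard error 0.44, limma adjusted p = 0.798), and 1.20 in Tas1r3+/+ mice. Without the transcripts that carry long values in any library, the log2 fold change of Il18 was -0.83. The chemokine gene Ccl2 had 1.12 and 1.38 against 0.744, 0.464 and 0.422. It reached the RPKM limit for description only through the ND libraries, so it could enter only by being lower on the WD. Its direction is therefore no support for a fall, and the count of lower inflammatory genes and the list median include it.

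Nos2, inducible nitric oxide synthase, had 12.7 and 7.38 against 4.26, 9.21 and 5.01 and Il6 18.6 and 7.02 against 12.8, 10.3 and 6.62, so both overlapped. Tnf and Il1b stayed under the RPKM limit for description, with Tnf at 0.471 and 1.04 on the ND and 0.201, 0.213 and 0.311 on the WD. The interferon-induced chemokines Cxcl9 and Cxcl10 overlapped between diets, each with ND male 2 as the highest library (5.50 and 4.86). Across 21 NF-kB subunits and inhibitors, 4 lay higher and 3 lower in every WD library, with a median of 0.02. Besides Nfkb1, the lower members were Rela (the p65 subunit) and Tab1 (a kinase adaptor). The higher ones were Rel, Traf6, Tab2 and Map3k7, and Traf6, Tab2 and Map3k7 transmit receptor signals to the pathway.

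Barrier and antimicrobial genes named by the study lay on the other side. Of the 8 described, 4 lay higher and 0 lower in every WD library, with a median log2 fold change of 0.63 in Tas1r3-/- and -1.01 in Tas1r3+/+ mice. The study names these genes for higher levels in Tas1r3-/- than in Tas1r3+/+ mice, with Tjp3 and Defa27 from its ileal RNA-seq. The opposite sides of the 2 genotypes are therefore not independent evidence. Without ND male 2 the median in Tas1r3-/- mice was 0.18. Of these 8 genes, 7 carry values of more than 6 digits in the Tas1r3-/- libraries, and the one left without them had a log2 fold change of 0.12. Cldn7, a tight junction claudin, had a scaled RPKM of 601 and 462 against 924, 867 and 1007 (log2 fold change 0.82, standard error 0.30, limma adjusted p = 0.870), with 6 such values. Ocln, occludin, had 15.1 and 19.0 against 40.5, 31.4 and 27.1, with 3 such values. Tjp3 had 87.5 and 84.1 against 115, 92.2 and 101, with 4 such values. Lyz1, the Paneth cell lysozyme, was the fourth, with 5730 and 3713 against 6369, 6465 and 5944.

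Over the longer list of 25 tight junction and adhesion genes, 5 lay higher and 0 lower in every WD library, but the median was -0.06. Besides those 3, they were Tjp1 (ZO-1), with 10.1 and 10.9 against 26.1, 28.3 and 17.5 and 2 such values, and Cldn12, with 5.60 and 5.66 against 6.91, 8.01 and 9.38 and none. The longer list moved between -0.28 without the WD female and 0.23 without WD male 1. Reg3g, an antibacterial lectin of enterocytes, had 8128 and 1507 on the ND and 6503, 6326 and 11566 on the WD, so its WD libraries overlapped with ND male 1. Among 31 alpha-defensins and other Paneth cell products, 1 lay higher and 3 lower (Defa29, Defa30 and Defa38), with a median of -0.02. The alpha-defensin genes are near-identical and the counting may divide reads between them.

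Of the 11 PPAR and mTOR axis genes named by the study, 0 lay higher and 1 lower in every WD library, with a median of -0.10. The lower one was Mtor, the nutrient-sensing kinase, with 3.62 and 4.48 against 2.54, 2.80 and 3.42. Pparg had 9.93 and 9.51 against 6.47, 4.68 and 10.1, Ppara 6.72 and 4.86 against 6.31, 6.69 and 7.04, and Cpt1a, which admits fatty acids into mitochondria, 36.3 and 47.3 against 41.9, 37.1 and 49.3. Their diets overlapped. Values of more than 6 digits occur in 6 of the 11 genes.

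Interferon-stimulated genes leaned lower. Of 43 described, 7 lay lower and 0 higher in every WD library, and 3 had an unadjusted p under 0.05, with a median of -0.23 in Tas1r3-/- and 0.06 in Tas1r3+/+ mice. The 3 belong to antigen processing for MHC class I. Tap1, the peptide transporter, had 20.1 and 44.5 against 12.4, 10.7 and 19.4 (log2 fold change -1.10, standard error 0.41, limma adjusted p = 0.873). The immunoproteasome subunit Psmb8 had 58.6 and 109 against 29.0, 32.8 and 53.8, and Psmb9 49.1 and 82.2 against 22.5, 27.8 and 39.4. ND male 2 was the highest library in each. The list median stayed between -0.40 and -0.10 when 1 library was left out.

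B cell genes lay higher. Of the 17 described genes of B cells and follicles, 9 lay higher and 0 lower in every WD library, with a median of 0.96, beside 0.47 in Tas1r3+/+ mice. Without WD male 1 the median was 0.50, with 9 genes still higher, beside 18.2% of all genes. Ms4a1, which encodes CD20, had 0.112 and 0.249 on the ND against 3.03, 0.753 and 3.41 on the WD. Cxcr5, the receptor that brings B cells into follicles, had 0.0601 and 0.0232 against 2.09, 0.361 and 2.98. Levels were low, and WD male 2 was the lowest WD library in both. Both genes reached the RPKM limit for description only through WD libraries, so they could enter only by being higher there. Their direction is therefore no support for a rise, and the count of 9 and the list median include them. The summed level of the list was 49.6 and 59.7 on the ND and 154, 53.5 and 113 on the WD, so that WD male 2 lay within the ND range. Whether a sampled piece held a lymphoid follicle was not tested.

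Antibody variable segments had the 3 lowest log2 fold changes among genes without overlap that had an unadjusted p under 0.01 and a mean scaled RPKM of at least 5 on 1 diet. Ighv1-59 (chr12:115335082-115335514) had 84.1 and 44.5 on the ND and 11.5, 8.90 and 8.92 on the WD (log2 fold change -2.60, standard error 0.57, limma adjusted p = 0.689). Ighv2-4 (chr12:113653291-113653724) had 17.2 and 15.7 against 3.19, 3.51 and 2.72, and Ighv1-50 (chr12:115119748-115120219) 31.6 and 60.8 against 16.9, 9.86 and 9.33. Of 179 such segments, 6 lay higher and 25 lower in every WD library, with a median of -0.32, beside 0.73 in Tas1r3+/+ mice. Without WD male 1, 67 lay lower and 9 higher (median -0.83), beside 19.2% and 18.2% of all genes, and without the WD female 27 and 22 (median -0.02), beside 24.1% and 21.3%, so this list depended on which WD library was kept. Reads of related segments may be divided between them. The plasma cell list had 1 of 18 genes higher (Xbp1) and 0 lower, and its sum was 15028 and 18989 against 25702, 12698 and 5548.

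Macrophage genes were mixed. The complement genes C1qa, C1qb and C1qc, made by tissue macrophages, lay lower in every WD library, with C1qa at 61.1 and 70.2 against 50.7, 37.2 and 24.2. So did Cd14, the endotoxin co-receptor, with 15.8 and 11.1 against 4.68, 7.44 and 10.4 (log2 fold change -0.84, standard error 0.29, limma adjusted p = 0.870). Lyz2 and Ccr7 lay higher, and the median of the 23 genes was -0.25 (-0.58 to 0.11 with 1 library left out). MHC class II genes had 0 of 13 without overlap.

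Dividing-cell genes lay lower in part. Of 40 proliferation genes, 9 lay lower and 3 higher in every WD library, with a median of -0.27 and a range of -0.44 to -0.10 when 1 library was left out. Aurkb, a mitotic kinase, had 20.7 and 22.6 against 8, 14.3 and 11.2 (log2 fold change -0.96, standard error 0.36, limma adjusted p = 0.873), and Tk1, thymidine kinase, 26.2 and 36.8 against 22.1, 21.4 and 22.8. The 3 higher ones were Ccne2, Cdc6 and Bub1. Of 22 crypt stem cell and Wnt target genes, 1 lay higher and 2 lower, with a median of 0.04.

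Among hormones of the enteroendocrine cells that normally carry TAS1R3, Cck, cholecystokinin, released in response to fat, had 4.66 and 2.17 on the ND against 6.07, 16.4 and 7.43 on the WD (log2 fold change 1.37, standard error 0.46, limma adjusted p = 0.858). Gip and Tac1 were also higher in every WD library. Gcg, the precursor of GLP-1, was lower, with 28.8 and 29.7 against 23.8, 20.2 and 25.2, and its log2 fold change was -0.34 beside 1.04 in Tas1r3+/+ mice (interaction adjusted p = 1.00). Of the 16 genes 3 lay higher and 1 lower, and the median of 0.41 was -0.02 without ND male 2 and 0.17 without WD male 1. Among 17 tuft cell and taste transduction genes, only Plcb2, the phospholipase of taste signalling, lay without overlap, at 2.69 and 2.33 against 3.47, 3.66 and 3.52. Of 9 fatty acid and nutrient receptors, 3 lay higher (Ffar3, Ffar4 and Lpar1) and 0 lower.

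A few members of the stress and clock lists lay higher and were picked after their values were seen. Over all genes, 10.8% lay higher and 10.3% lower in every WD library. The co-chaperone Dnajb9, a target of the unfolded protein response, had 6.26 and 4.80 against 10.9, 13.4 and 18.1 (log2 fold change 1.26, standard error 0.30, limma adjusted p = 0.691). Of the 32 genes in its list 3 lay higher, no more than the share over all genes, and 1 lower (median 0.00). Of 24 immediate-early and heat shock genes, 4 lay higher and 0 lower, among them Dnaja1 and Hsp90aa1, with a median of 0.21 (-0.02 to 0.46 with 1 library left out). The clock repressor Nr1d2 had 8.23 and 11.6 against 21.6, 15.0 and 18.7 (log2 fold change 0.87, standard error 0.33, limma adjusted p = 0.873), and Cry1 1.89 and 3.46 against 4.09, 4.50 and 6.72. Of the 18 clock genes 3 lay higher and 0 lower, with a median of 0.35 (0.24 to 0.53 with 1 library left out). Hours of dissection are not given in the labels. The iron list had 2 of 19 genes higher and 1 lower in every WD library, with a median of 0.19. Its members Glrx5 and Hif1a were picked after their values were seen. Glrx5, a mitochondrial iron-sulphur cluster protein, had 55.1 and 43.4 against 21.9, 24.6 and 23.2 (log2 fold change -1.06, standard error 0.20, limma adjusted p = 0.689), and -1.16 in Tas1r3+/+ mice. Hif1a, the hypoxia factor, had 4.17 and 6.04 against 13.3, 15.2 and 18.9, with 6 values of more than 6 digits, and a log2 fold change of -0.14 in Tas1r3+/+ mice.

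**Figure D5:**
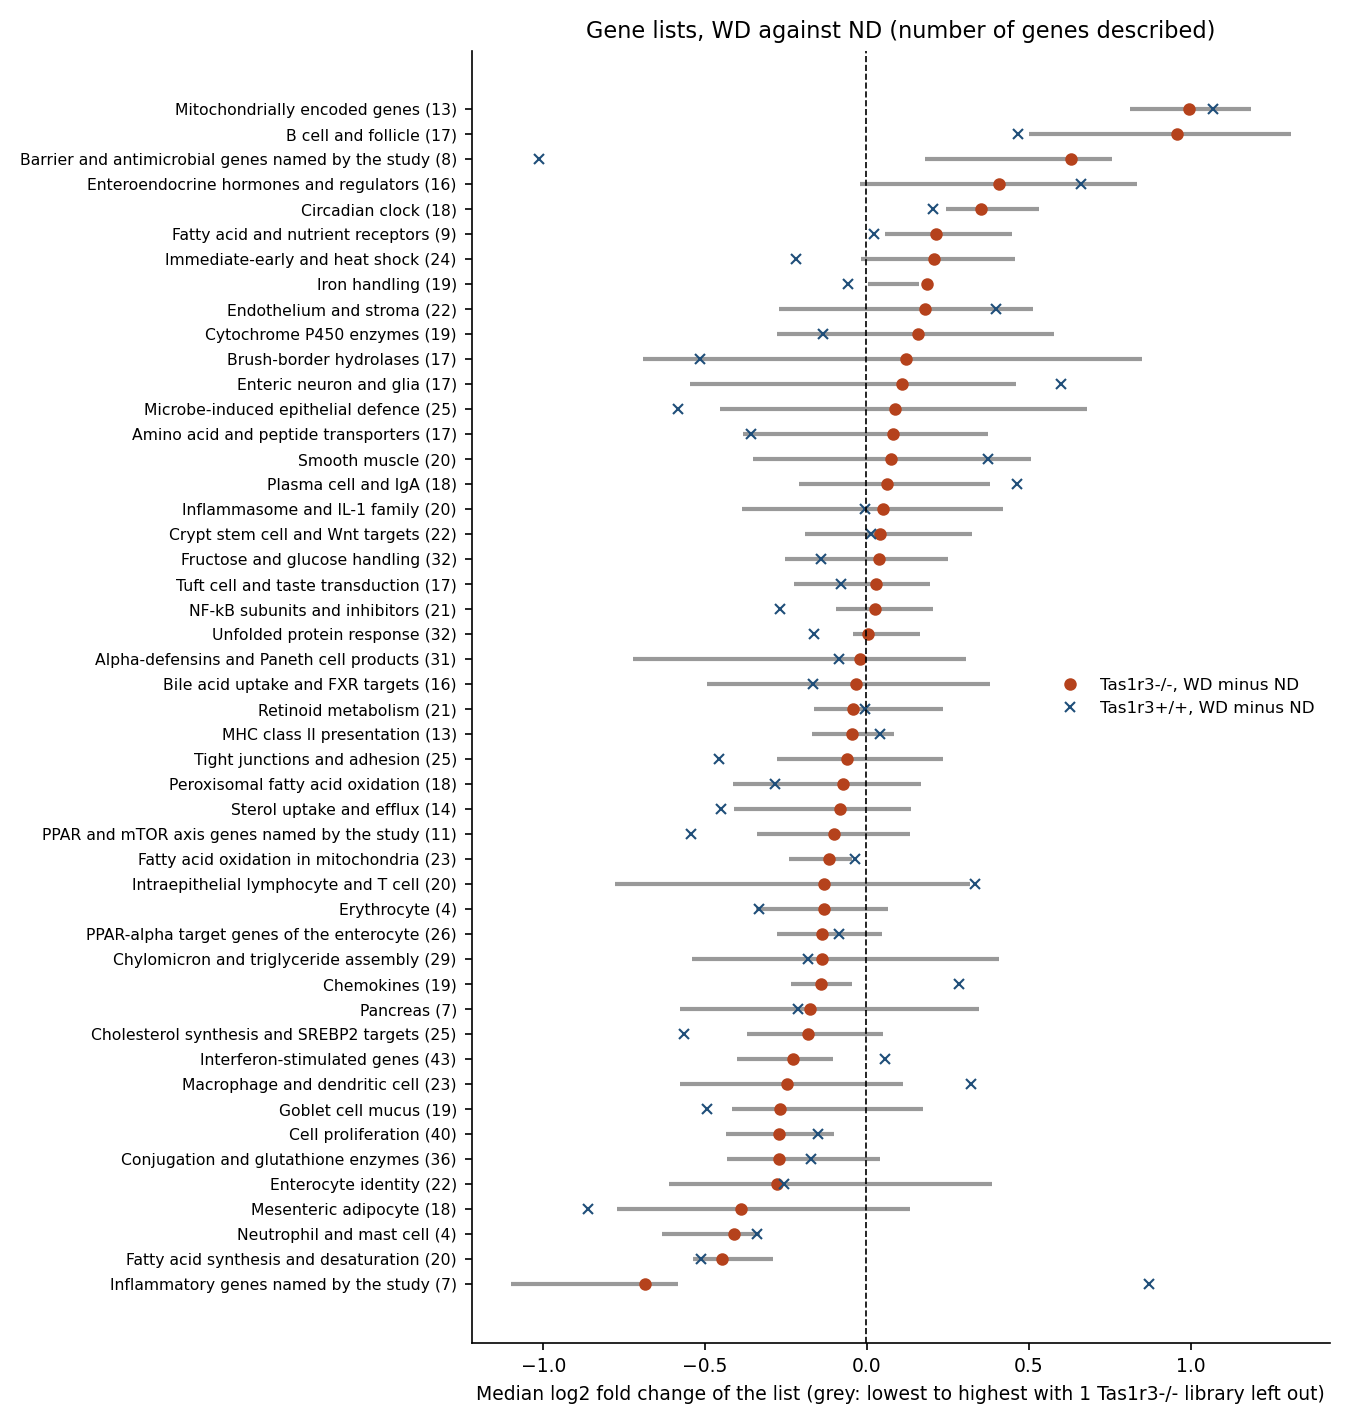
Median log2 fold change (WD against ND) of each of 48 gene lists in Tas1r3-/- mice (filled points) and Tas1r3+/+ mice (crosses), with the number of genes described in brackets. Grey lines run from the lowest to the highest median with 1 Tas1r3-/- library left out, and the dashed line is the median of all genes described, 0.00. The mitochondrially encoded genes and the fatty acid synthesis genes keep their side in both genotypes, while the inflammatory and barrier genes named by the study take opposite sides. Both lists named by the study hold genes that it picked from these data, so their sides are not independent evidence.

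Genes with the largest separated differences were drawn from 164 that had an unadjusted p under 0.01, no overlap and a mean scaled RPKM of at least 5 on 1 diet, 82 higher and 82 lower. The 12 with the highest and the 12 with the lowest log2 fold changes were named, and only Trbv13-1 passed the test. Besides Trbv13-1, Trbc2, Slc2a2 and Hif1a, the first 12 held 4 processed pseudogenes, Gm13725, Gm11507, Gm15361 and Rpl15-ps5. Gm37401 is annotated antisense to Rhoa, a small GTPase gene, on chromosome 9, and had 10.9 and 3.46 against 37.1, 67.7 and 72.6. Without strand in the counting, its reads and those of Rhoa cannot be told apart. The remainder were Rn7s6, Mir703 (a microRNA gene that overlaps Cfap299 on the other strand) and Gm6937.

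The 12 lower genes held, besides the 3 antibody segments and Il18, 6 processed pseudogenes, among them Prdx6-ps2, Gm7856, Gm17669 and Plk-ps1. Gm7856 had 20.4 and 16.8 against 4.41, 6.57 and 5.91 (log2 fold change -1.65, standard error 0.29, limma adjusted p = 0.689). The last pair were C230062I16Rik and Rpl13, a ribosomal protein gene with 444 and 279 against 162, 119 and 176. Pseudogenes made up 19.6% of the genes described, and reads that match a parent gene equally well can be assigned to them. Over the 89 cytosolic ribosomal protein genes, 28 lay higher and 11 lower, with a median of 0.15, so Rpl13 went against its group. In Tas1r3+/+ mice, 20 of the 24 named genes had the same sign.

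The diet effects of the 2 genotypes share no library. Over the 17510 genes, log2 fold changes correlated with Pearson r = 0.473 and Spearman rho = 0.521, a description across genes within 1 fit. In Tas1r3+/+ mice, 1 gene passed the study's threshold (0.00571%), 21 passed at an adjusted p under 0.05 (0.12%), and 2792 had an unadjusted p under 0.05 (15.9%), with 8 libraries against 5 here. A test of the difference between the 2 diet effects found 0 genes at either adjusted threshold (0.0%) and 241 with an unadjusted p under 0.05 (1.38%). The groups lay apart in the same direction in both genotypes in 844 genes (4.82%) and in opposite directions in 16 (0.0914%).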

How the data were processed

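The authors sequenced ileal RNA on an Ion Proton instrument and deposited RPKM values per transcript, made in Partek Flow on mm10. How reads were divided between related transcripts and whether strand was used are not given in the sources used here. Transcript RPKM were summed to genes, libraries were scaled by trimmed means of M values, and log2(scaled RPKM + 0.5) entered a linear model (limma 3.58.1, R 4.3.3, variance trend on) over 13 libraries in 4 groups, with Benjamini-Hochberg adjustment over 19042 genes. Fold changes are on this scale, which understates those of low genes. The steps were tested on simulated data. Depth was inferred from the smallest steps between values, and implied reads cover counting error only. For the WD female library both came from the female 1 column alone. Named genes were the 12 highest and 12 lowest log2 fold changes among genes without overlap, with an unadjusted p under 0.01 and a mean of at least 5, besides the genes named by the study. Members and lists were chosen with earlier results of these data known. Lists of mitochondrial tRNAs, nuclear respiratory chain and ribosomal protein genes, antibody segments, pseudogenes, protein-coding genes and genes with long values were added after values were seen, as were counts without WD male 1 or the WD female. Other members shown from the lists were also chosen after their values were seen. Some items are not reported here.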

Additional observations from a re-analysis of the deposited data

Results flagged for a closer look

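Of the 16 genes whose WD libraries all lay apart from the ND libraries in both genotypes but in opposite directions, 5 belong to the gene lists. Their differences of the diet effects (Tas1r3-/- minus Tas1r3+/+) are given on the log2 scale (limma). None of them passed adjustment over all genes (interaction adjusted p = 1.00 for each). For the chemokine gene Ccl2 the difference was -2.38 (standard error 0.67), with log2 fold changes of -0.76 in Tas1r3-/- and 1.62 in Tas1r3+/+ mice. Ccl2 was described only through the ND libraries of Tas1r3-/- mice, so its direction there is no support for a fall. For Nfkb1 the difference was -1.27 (standard error 0.24). For the junction genes Cldn7 and Tjp1 it was 1.83 (standard error 0.37) and 1.78 (standard error 0.34). For Klf4, a factor of differentiated epithelium, it was 1.504, with scaled RPKM of 52.4 and 47.0 on the ND and 62.7, 57.6 and 157 on the WD in Tas1r3-/- mice. These same 5 genes, and no other of the 16, carry values of more than 6 digits in at least 1 library, as do 66 of the 17510 genes described.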

How the results depend on the processing

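The count of genes past the study's threshold was 0 and remained 0 with each library left out (0 to 0). It was 1 with upper-quartile scaling, 1 with a mean RPKM of at least 5 and 1 at an adjusted p under 0.05 with no minimum fold change. It was 90 of all fitted genes at an unadjusted p under 0.01 with a fold change of at least 2, and 16 when all 16 columns were used as labelled, which counts weighted means as samples. The count for the difference between genotypes was 0 in all 18 alternatives and ranged from 0 to 0 with a library left out. The replicate block gave a log2 fold change of 3.83 for Trbv13-1 with an adjusted p of 0.149 (limma), so its call was lost, and the count past the threshold under the block was 0. The averaged WD female library had a block level of its own, so the Tas1r3-/- contrast rested on the males. Fold changes under the block therefore largely repeat those without that library. The male numbers were no evidence of pairing (r = -0.08 over genes, 2 pairs). With the 2 Tas1r3-/- groups alone the adjusted p of Trbv13-1 was 0.117, and with males only 0.0706. The block also turned Il6 (0.0021), Acsl1 (-0.20), Cpt1a (-0.0693) and Defa3 (0.0242). Without scaling, the sign turned in Ppara (-0.17), Pck1 (-0.19), Acsl1 (-0.35), Cpt1a (-0.36), Cpt2 (-0.15), Tjp3 (-0.15) and Defa2 (-0.29). It turned with males only in Acsl1 (-0.21), Cpt1a (-0.074) and Defa3 (0.0195), and with sex as a covariate in Cpt1a (-0.0133) and Defa3 (0.18). With 16 columns it turned in Il6 (0.21), Ppard (0.0296), Adipoq (0.11) and Defa2 (-0.11), and without transcripts with long values in Pck1 (-0.86) and Adipoq (0.18). With 1 library left out, log2 fold changes ranged across 0 in Acadm (-0.45 to 0.0454), Acsl1 (-0.34 to 0.42), Adipoq (-1.20 to 0.21), Cpt1a (-0.15 to 0.23), Cpt2 (-0.0167 to 0.51), Cxcl9 (-1.41 to 0.0871), Defa2 (-0.87 to 1.11), Defa27 (-0.15 to 2.45), Defa3 (-0.28 to 0.0242), Il6 (-0.92 to 0.42), Pck1 (-0.67 to 1.09), Ppara (-0.00875 to 0.42), Ppard (-0.34 to 0.10) and Reg3g (-0.0574 to 2.37). The cause of these turns was not tested. Of the list medians under all alternatives, 856 stayed within the spread between libraries and 56 moved.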

Other observations

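Among conjugation and glutathione enzymes, which detoxify reactive compounds, 4 of 36 genes lay lower in every WD library (Gstm3, Gstm4, Gstp1 and Nqo1) and 2 higher (Gpx4 and Ces1d), with a median log2 fold change of -0.27 (-0.43 to 0.04 with 1 library left out). Of 20 inflammasome and IL-1 family genes, Casp4 and Il33 lay higher and Aim2 and Il18 lower in every WD library. Of 19 chemokine genes, Ccl2, Ccl8 and Ccl9 lay lower, and Cxcl13, which draws B cells into follicles, lay higher. Ccl2 reached the RPKM limit for description only through the ND libraries, so it could enter only by being lower on the WD. These genes were named after their values were seen, and 0 passed adjustment over all genes (limma with Benjamini-Hochberg adjustment).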
